A study of Mus musculus with 11 samples.

Results

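The immediate early and dissociation response genes are a set of 10 genes taken by name from the deposited gene table, out of 55487 genes listed: Fos, Fosb, Jun, Junb, Egr1, Ier2, Dusp1, Zfp36, Nr4a1 and Hspa1a. All 10 were listed once, were counted in every library and passed the filter on low counts in every comparison. They were followed in 11 bulk RNA sequencing libraries in 4 groups. The title of the series places the study in the action of tumour-secreted FGF21 on the cholesterol metabolism of CD8+ T cells. The first pair of groups is labelled as tumour tissue, T cell and Immune cell, and is called T cell-labelled here. It has 3 control libraries (genotype WT, titles with N or NC) and 2 knockdown libraries (titles with sh). Knockdown replicate 1 carries the genotype FGF21 Knockdown, while that of replicate 2 names FGF22. The second pair is labelled as tumour tissue, MC38 and mesenchymal cell, and is called tumour here. It has 3 control libraries (WT, numbered 1, 2 and 6) and 3 libraries labelled FGF21 Knockdown (numbered 1, 2 and 3). MC38 is a mouse colon carcinoma line, so in all 4 groups the source is a tumour, by label. The titles of the T cell-labelled libraries join several numbers, but pooling, the host strain, its age, the treatment of the tissue and the time from harvest to lysis have no entry among the sources used here. The labels do not tie replicates to animals, so a p-value here reflects only how far these libraries scatter, and that scatter may be technical.

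Immediate early genes are transcribed within minutes of a signal, without new protein synthesis, when kinases activate transcription factors that already sit near their promoters. Growth factors, antigen receptor signals, inflammatory stimuli and stress all induce them, and so can the enzymes, warmth and handling used to turn a tissue into single cells. Their transcripts are short-lived, and several of their products feed back on the pathway: Dusp1 protein removes phosphate from MAP kinases, and Zfp36 protein speeds the decay of mRNAs with AU-rich elements.

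Total counts ran from 14944013 to 19099350 per library. Levels are given as CPM, a gene's share of its library's counts after TMM scaling over the 11 libraries, and errors are SD with n = 3 (n = 2 for T cell-labelled knockdown). Fgf21, the targeted gene, had counts of 0, 0 and 0 in the T cell-labelled controls, 0 and 0 in the T cell-labelled knockdowns, 0, 2 and 1 in the tumour controls and 0, 0 and 0 in the tumour knockdowns. These counts are at or under the limit of 3 that a count of 0 allows, so the knockdown could not be checked. In the T cell-labelled libraries 11 T cell markers summed to 286 to 568 CPM, while 10 macrophage markers summed to 10421 to 18183 CPM, so the label does not describe these libraries' leading markers. Mesenchymal markers were at 12250 to 14523 CPM there and at 14403 to 17781 CPM in the tumour libraries. In the tumour libraries the T cell markers summed to 1.20 to 2.40 CPM, with Cd3e, Cd2 and Cd8b1 at a count of 0 in all 6. The macrophage markers summed to 6.99 to 22.3 CPM there, so these libraries held few T cell or macrophage marker counts although labelled tumour tissue. Epithelial markers summed to 2.29 to 5.13 CPM in the tumour libraries and to 16.6 to 43.6 CPM in the T cell-labelled libraries. In bulk RNA, fewer cells of a type and less RNA per cell cannot be told apart.

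Promoter sequences were taken from RefSeq (GRCm38.p6) for 8 of the 10 genes, and no entry for Ier2 or Egr1 was used here. Flanks of 250 bases end at the base before the transcript start. They are shown for Fos, Dusp1 and Zfp36, whose levels moved together across libraries, and for the heat shock gene Hspa1a. The flank of Nr4a1, which ran nearly opposite to Fos in the tumours, is also shown. Each is written 5′ to 3′ on the strand of the gene, and capitals mark matches, on either strand, to the motifs named after the sequences, apart from CCAAT.
Fos, chr12:85473640-85473889, plus strand: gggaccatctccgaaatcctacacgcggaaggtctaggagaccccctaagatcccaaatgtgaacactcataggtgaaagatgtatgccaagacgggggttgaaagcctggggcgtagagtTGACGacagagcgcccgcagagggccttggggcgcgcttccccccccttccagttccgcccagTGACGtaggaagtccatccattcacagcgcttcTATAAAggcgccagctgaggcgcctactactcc
Dusp1, chr17:26508473-26508722, minus strand: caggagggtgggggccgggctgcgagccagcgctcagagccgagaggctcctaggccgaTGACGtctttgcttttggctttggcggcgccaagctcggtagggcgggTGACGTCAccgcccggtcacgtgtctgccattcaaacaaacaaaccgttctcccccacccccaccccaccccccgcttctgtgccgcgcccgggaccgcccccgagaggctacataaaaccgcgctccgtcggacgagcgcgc
Zfp36, chr7:28379229-28379478, minus strand: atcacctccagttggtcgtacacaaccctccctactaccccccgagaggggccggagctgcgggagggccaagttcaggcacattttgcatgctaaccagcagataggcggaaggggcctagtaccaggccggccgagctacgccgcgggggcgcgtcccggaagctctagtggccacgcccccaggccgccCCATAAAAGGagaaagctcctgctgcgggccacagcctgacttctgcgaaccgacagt
Nr4a1, chr15:101266596-101266845, plus strand: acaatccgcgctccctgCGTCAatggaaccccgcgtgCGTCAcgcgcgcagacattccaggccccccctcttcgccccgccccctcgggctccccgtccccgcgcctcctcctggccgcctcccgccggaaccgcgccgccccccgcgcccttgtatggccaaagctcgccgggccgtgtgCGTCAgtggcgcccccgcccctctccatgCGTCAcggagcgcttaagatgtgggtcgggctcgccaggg
Hspa1a, chr17:34972157-34972406, minus strand: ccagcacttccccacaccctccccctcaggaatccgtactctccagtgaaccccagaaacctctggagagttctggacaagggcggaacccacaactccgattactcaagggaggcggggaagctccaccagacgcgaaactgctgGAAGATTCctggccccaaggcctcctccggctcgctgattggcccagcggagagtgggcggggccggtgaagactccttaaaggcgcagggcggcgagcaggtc
The motifs searched were the cyclic AMP response element half-site TGACG, its full palindrome TGACGTCA (which holds 2 overlapping half-sites), the AP-1 site TGANTCA, the CArG box bound by serum response factor, TATAAA, the heat shock element core GAANNTTC, and CCAAT, which is left in lower case. Nr4a1 had 4 half-sites, Dusp1 had 3 (2 of them in a full palindrome starting at -143 from the transcript start), and Fos had 2 together with TATAAA at -33. Fosb and Junb, not printed, had 1 half-site each. Zfp36 had a CArG box at -58 and no half-site, and Hspa1a had a heat shock core at -104. Jun, also not printed, had a heat shock core at -128. CCAAT was found once each in Jun, Junb and Hspa1a. Over 32851 RefSeq promoters of the same length, 17.8% held TGACG, 1.55% TGACGTCA, 6.75% TGANTCA, 1.47% the CArG box, 12.4% TATAAA, 6.69% GAANNTTC and 33.8% CCAAT. None of the 8 held TGANTCA in this window. A match describes letters only.

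Most of these genes were abundant transcripts, Hspa1a the least. Together the 10 genes summed to 16862 to 20767 CPM in the T cell-labelled libraries and to 7772 to 15364 CPM in the tumour libraries. Egr1 ranked 4 to 17 and Jun 5 to 50 among all genes by CPM, and Fosb ranked 16 to 118. In their lowest library Nr4a1 ranked 700, Zfp36 874 and Dusp1 1132.5, and Hspa1a ranged from 688.5 to 9188. Per length, as CPM per kilobase of merged exons, the T cell-labelled controls had Fos at 1053 ± 154, Junb at 1029 ± 186 and Jun at 991 ± 81.3, which overlap within their spread. In the same unit and libraries Egr1 stood at 733 ± 100.2, Zfp36 at 603 ± 121, Dusp1 at 535 ± 70.9 and Ier2 at 526 ± 74.8. Fosb at 295 ± 28.7, Nr4a1 at 131 ± 19.6 and Hspa1a at 68.7 ± 12.7 CPM per kilobase were the lowest, each below the range of the one before. In the tumour controls the order per length began with Jun at 952 ± 452, Egr1 at 718 ± 259 and Junb at 628 ± 134 CPM per kilobase, followed by Ier2 at 506 ± 168 and Fos at 480 ± 309. The deposited FPKM imply gene lengths longer than the listed locus for Fos, Fosb, Egr1 and Zfp36, so exon lengths of GENCODE M21 were used for these levels, a choice made after seeing the data. For Junb that exon length, 2301 bases, is itself longer than the listed locus of 1809 bases. Over the listed locus its level per kilobase would be higher, so the place of Junb in these orders is uncertain. By the deposited FPKM the T cell-labelled controls began with Junb at 1250.02, Jun at 947 and Fos at 624 FPKM.

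**Figure D1:**
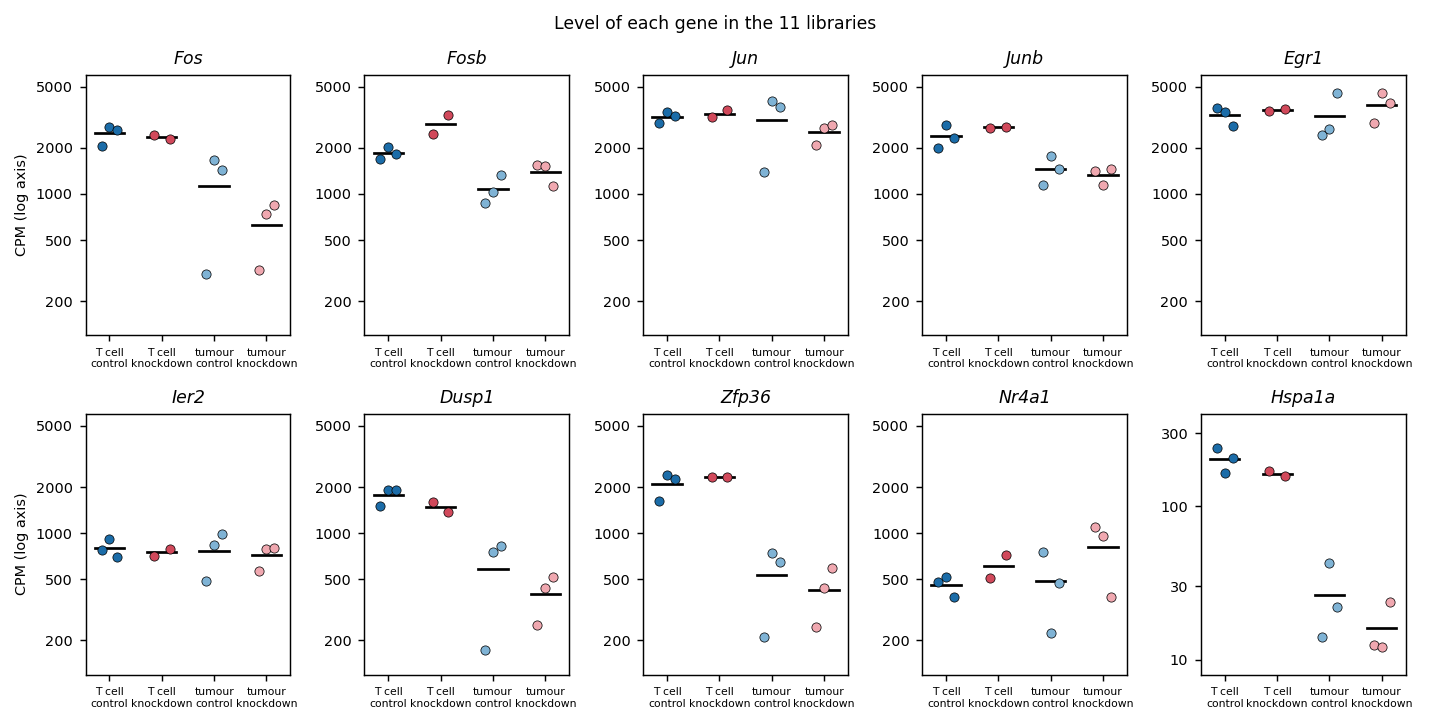
CPM (log axis) of each of the 10 genes in the 11 libraries, 1 dot per library and a bar at each group mean; Hspa1a has an axis of its own. Zfp36, Dusp1, Fosb, Junb, Fos and Hspa1a sit higher in the T cell-labelled control libraries than in the tumour control libraries with no overlap. Jun, Egr1, Ier2 and Nr4a1 overlap between these groups.

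The first question was where the genes stood in T cell-labelled against tumour libraries. In the control libraries 5 of the 10 genes were higher in the T cell-labelled group and none was lower: Hspa1a, Zfp36, Dusp1, Fosb and Junb. Over all 17327 genes tested, 20.3% were called higher in this comparison and 13.1% lower. In the knockdown libraries the same comparison called those 5 and Fos, 6 of 10, where 21.6% of all genes were called higher and 13.6% lower. The groups of libraries did not overlap for 6 of the 10 genes in the controls, all higher, against 25.4% of all genes, and for 7 of 10 in the knockdowns, against 33.3% of all genes. The median log2 difference of the 10 genes was 0.74 in the controls and 1.01 in the knockdowns, and that of all genes tested was -0.01 and 0.00. These 2 comparisons contrast separate libraries. Their scaling, filter and estimate of spread came from the same fit of all 4 groups, so the tests are not independent. The other cell markers moved with this contrast too: all 11 T cell markers and all 10 macrophage markers were above every tumour library in every T cell-labelled library. Their part in the results was not tested.

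Zfp36 (ENSMUSG00000044786, chromosome 7, 28376784 to 28380253) encodes tristetraprolin, the mRNA decay factor. It stood at 1614, 2405 and 2259.6 CPM in the T cell-labelled controls, at 2327 and 2334 CPM in the T cell-labelled knockdowns, at 209.7, 744 and 650.3 CPM in the tumour controls and at 246, 442 and 595 CPM in the tumour knockdowns. Every T cell-labelled library lay above every tumour library. The log2 difference was 1.96 ± 0.41 (SE) in the controls, with an adjusted p of 0.00317 from edgeR's quasi-likelihood test, and 2.43 ± 0.45 in the knockdowns, with an edgeR adjusted p of 0.00143.

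Dusp1 (ENSMUSG00000024190, chromosome 17, 26505590 to 26562128), the MAP kinase phosphatase, followed the same pattern. Its level was 1499.6, 1913 and 1899 CPM in the T cell-labelled controls, 1605 and 1376 CPM in the T cell-labelled knockdowns, 173, 758 and 823 CPM in the tumour controls and 252, 442 and 520.2 CPM in the tumour knockdowns. No T cell-labelled library overlapped a tumour library. The log2 difference was 1.59 ± 0.45 in the controls (edgeR adjusted p 0.0171) and 1.86 ± 0.49 in the knockdowns (edgeR adjusted p 0.0114). Without T cell-labelled knockdown replicate 1, and with the lone library assumed to vary like the other group, the latter was 1.75 with an edgeR adjusted p of 0.058. The locus listed for Dusp1 spans 56539 bases and overlaps Ergic1 on the other strand, at 80.0 to 273 CPM, and how the authors' counting used strand is not given in the sources used here.

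Fos (ENSMUSG00000021250, chromosome 12, 85473890 to 85477273) encodes the AP-1 subunit that pairs with Jun proteins. It had 2065, 2750.3 and 2616 CPM in the T cell-labelled controls, 2411 and 2275 CPM in the T cell-labelled knockdowns, 301, 1658 and 1427 CPM in the tumour controls and 318, 737 and 841 CPM in the tumour knockdowns. All 5 T cell-labelled libraries were above all 6 tumour libraries, and among tumours the lowest were control replicate 1 and knockdown replicate 1. The log2 difference in the controls was 1.13 ± 0.50 and did not pass (edgeR adjusted p 0.103). In the knockdowns Fos was higher by 1.87 ± 0.54 with an edgeR adjusted p of 0.0193. That call was lost without T cell-labelled knockdown replicate 1 (1.83, edgeR adjusted p 0.0725), without its replicate 2 (1.91, edgeR adjusted p 0.0693) and without tumour knockdown replicate 1 (1.55, edgeR adjusted p 0.0548).

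Fosb, the second Fos family gene measured, stood at 1683, 2037 and 1811 CPM in the T cell-labelled controls, 2452 and 3267 CPM in the T cell-labelled knockdowns, 872, 1027 and 1322 CPM in the tumour controls and 1536, 1521 and 1122 CPM in the tumour knockdowns. The T cell-labelled libraries lay above the tumour libraries throughout. The log2 difference was 0.77 ± 0.18 in the controls (edgeR adjusted p 0.00683) and 1.02 ± 0.20 in the knockdowns (edgeR adjusted p 0.00232). Junb, a Jun family gene, was at 2369 ± 429 CPM in T cell-labelled controls, 2716 ± 28.6 CPM in T cell-labelled knockdowns, 1445 ± 309 CPM in tumour controls and 1338 ± 168 CPM in tumour knockdowns. Its log2 difference was 0.71 ± 0.17 in the controls (edgeR adjusted p 0.00711) and 1.003 ± 0.19 in the knockdowns (edgeR adjusted p 0.00157).

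The remaining 4 genes did not pass between the 2 kinds of sample. Jun, the partner of Fos, had 2884, 3397 and 3201 CPM in T cell-labelled controls, 3169 and 3513 CPM in T cell-labelled knockdowns, 1388, 4061 and 3659 CPM in tumour controls and 2072, 2708 and 2811 CPM in tumour knockdowns. Tumour control replicate 1 was the lowest of all 11 libraries and tumour control replicate 2 the highest. The log2 difference of Jun was 0.06 ± 0.30 in controls and 0.38 ± 0.33 in knockdowns, where the libraries did not overlap. Egr1, a zinc finger transcription factor, ranged from 2779 to 3635 CPM in the T cell-labelled libraries and from 2436 to 4556 CPM in the tumour libraries, with log2 differences of 0.02 ± 0.24 and -0.12 ± 0.27. Ier2, which encodes a small nuclear protein, ranged from 698 to 923 CPM and from 487 to 984 CPM, with differences of 0.05 ± 0.23 and 0.05 ± 0.26. Nr4a1, an orphan nuclear receptor gene, had 481, 518 and 385 CPM in T cell-labelled controls, 508 and 723 CPM in T cell-labelled knockdowns, 755, 225 and 475 CPM in tumour controls and 1103, 960.4 and 385 CPM in tumour knockdowns. Its log2 differences were -0.08 ± 0.42 and -0.43 ± 0.47, and all groups overlapped. Jun shares its locus with the antisense gene Junos, at 19.8 to 30.3 CPM.

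Hspa1a (chromosome 17) encodes the inducible heat shock protein Hsp70 and has a near copy, Hspa1b, on the same chromosome. It had 241, 166 and 205 CPM in T cell-labelled controls, 169.9 and 157 CPM in T cell-labelled knockdowns, 14.0, 42.7 and 22.0 CPM in tumour controls and 12.4, 12.0 and 23.6 CPM in tumour knockdowns. Every T cell-labelled library lay above every tumour library, and the log2 difference was 2.96 ± 0.37 in controls (edgeR adjusted p 7.2e-05) and 3.33 ± 0.40 in knockdowns (edgeR adjusted p 5.1e-05). Hspa1b was counted at 308 to 578 CPM in the T cell-labelled libraries and at 203 to 1030.1 CPM in the tumour libraries, which overlap. The ratio of Hspa1b to Hspa1a counts was 1.96 to 2.85 in the T cell-labelled libraries and 14.5 to 25.9 in the tumour libraries. Of the 100-base words in the Hspa1a transcript 47.1% also occur in Hspa1b, so the split of reads between the copies is uncertain. The 2 promoters, which lie outside the transcripts, match at 247 of 250 bases. With the counts of both copies summed, an alternative chosen after seeing the data, the difference was 0.34 ± 0.44 in controls (edgeR adjusted p 0.593) and 0.71 ± 0.48 in knockdowns (edgeR adjusted p 0.275), and neither passed.

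**Figure D2:**
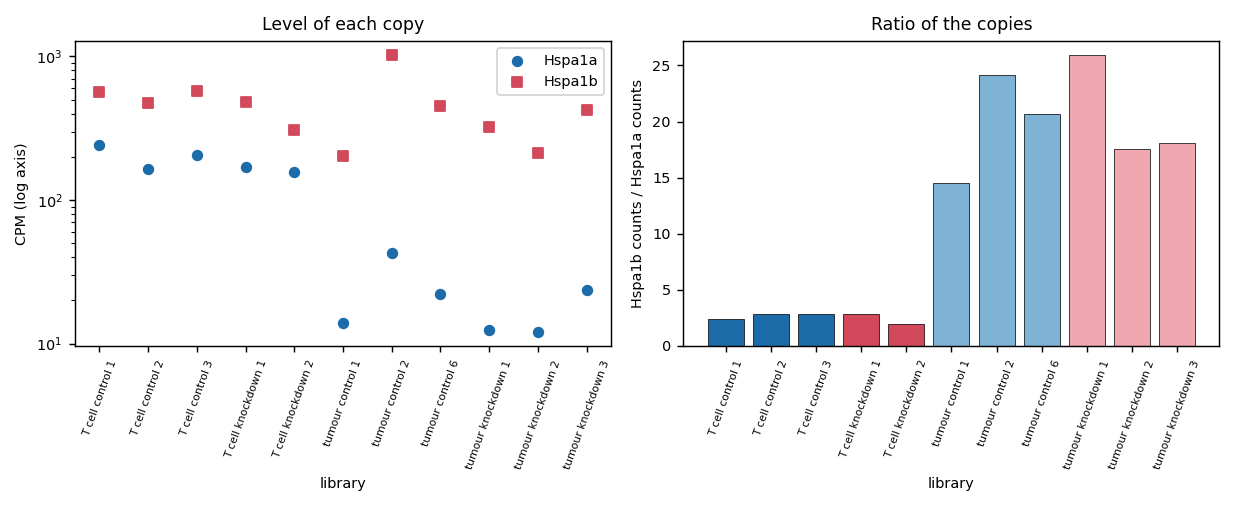
Left, CPM (log axis) of Hspa1a (circles) and Hspa1b (squares) in each library; right, the ratio of Hspa1b to Hspa1a counts as bars from 0. Hspa1a is lower in all tumour libraries while Hspa1b overlaps between the kinds of sample, and the ratio is 1.96 to 2.85 in the T cell-labelled and 14.5 to 25.9 in the tumour libraries.

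The second question was whether knockdown moved the genes within a kind of sample. In the T cell-labelled libraries 0 of the 10 passed, where edgeR called 13 of 16454 genes, 0.079%, and 1842 had an unadjusted p under 0.05. That unadjusted level was met by 11.2% of all genes and by 1 of the 10, Fosb, a share close to that of all genes. DESeq2 called 246 of the 16454 genes, with 1 of the 10 among them, also Fosb. Among the 10 genes Fosb alone had groups that did not overlap, where 29.7% of all genes did not. Its log2 difference was 0.62 ± 0.15 with an edgeR adjusted p of 0.241 and an unadjusted edgeR p of 0.00321, and with the DESeq2 Wald test it was 0.62 with a DESeq2 adjusted p of 0.00946. Without replicate 2, the library whose genotype names FGF22, it was 0.40 ± 0.16 (edgeR adjusted p 0.805). In the same libraries 8 of 10 macrophage markers were higher in both knockdown libraries than in every control, with sums of 10421 to 13058 CPM in controls and 16716 and 18183 CPM in knockdowns, and the part of this in Fosb was not tested. Nr4a1 had a log2 difference of 0.40 ± 0.18 (edgeR adjusted p 0.462) and Dusp1 one of -0.26 ± 0.14 (edgeR adjusted p 0.528). Hspa1a had -0.34 ± 0.16, and the other 6 genes lay between -0.11 and 0.18.

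In the tumour libraries 0 of the 10 passed by edgeR or DESeq2, 0 had an unadjusted edgeR p under 0.05 and 0 had groups that did not overlap. Over all 14950 genes edgeR called 5, or 0.0334%, with 930 at an unadjusted p under 0.05, and 11.7% of genes had groups that did not overlap. Fos had a log2 difference of -0.82 ± 0.56 (edgeR adjusted p 0.893), Nr4a1 of 0.75 ± 0.47 (edgeR adjusted p 0.881) and Hspa1a of -0.69 ± 0.40. Dusp1 had -0.51 ± 0.50, Fosb 0.38 ± 0.19, Zfp36 -0.30 ± 0.45, Jun -0.25 ± 0.34 and Egr1 0.24 ± 0.27, with Junb at -0.10 and Ier2 at -0.09. These sizes rested on single libraries: leaving out each in turn, Fos ran from -1.26 (without control replicate 1) to -0.45 (without control replicate 2) and Dusp1 from -0.95 (without control replicate 1) to -0.16 (without control replicate 6). Zfp36 ran from -0.68 (without control replicate 1) to -0.0094 (without control replicate 2), Hspa1a from -1.08 (without knockdown replicate 3) to -0.17 (without control replicate 2) and Nr4a1 from 0.41 (without control replicate 2) to 1.23 (without control replicate 1). None of these 5 genes passed in any of the leave-outs, where their lowest edgeR adjusted p was 0.333. The difference of the knockdown effect between the kinds of sample passed for 0 of the 10 genes, with every adjusted p at 1 in edgeR's 4-group fit, where 1 of 17327 genes was called, 0.00577%, and 826 had an unadjusted p under 0.05, 0 of them among the 10. DESeq2 also called 0 of the 10.

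**Figure D3:**
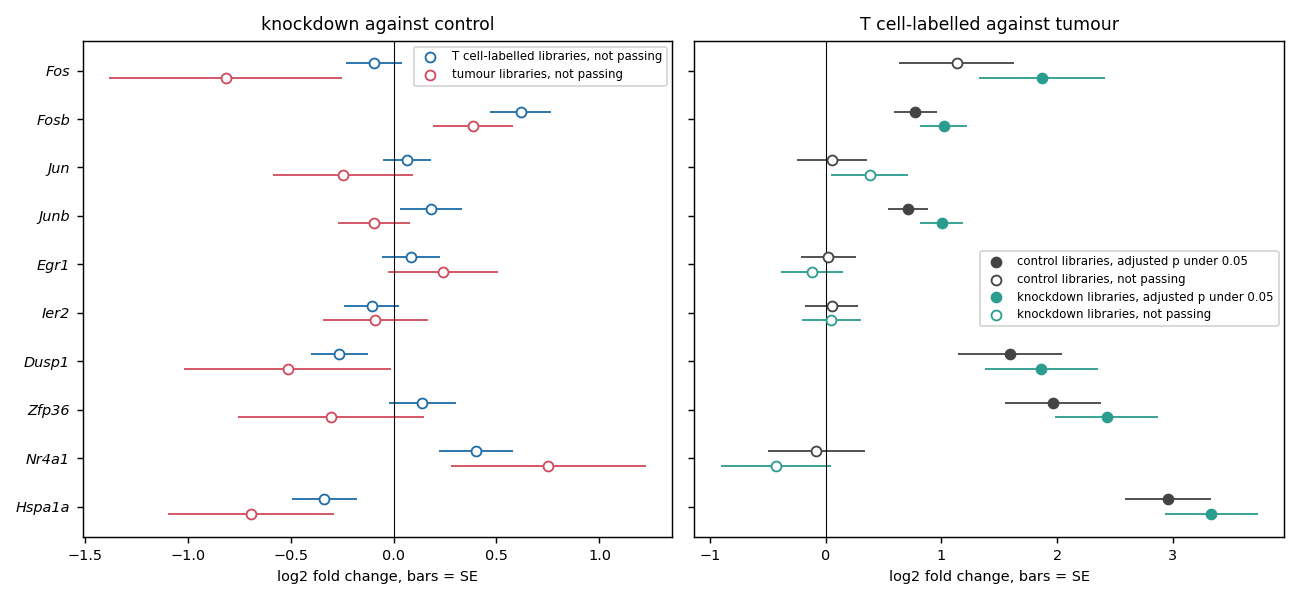
Log2 fold changes of the 10 genes with SE bars, left for knockdown against control and right for T cell-labelled against tumour libraries; filled points have an adjusted p under 0.05. All points on the left are open, and on the right 5 are filled in the controls and 6 in the knockdowns, from 0.71 for Junb to 3.33 for Hspa1a.

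Several of the genes varied widely among the 6 tumour libraries, controls and knockdowns pooled. Over the 6 tumour libraries the highest level of Fos was 5.51 times the lowest, a range that 2.68% of 10295 genes exceeded, while the median gene ranged 1.49-fold. Nr4a1 ranged 4.91-fold, Dusp1 4.76-fold, Zfp36 3.55-fold, Hspa1a 3.54-fold and Jun 2.93-fold. Ier2, Egr1, Fosb and Junb ranged 2.02-, 1.87-, 1.76- and 1.54-fold. Within the groups Fos ranged 5.51-fold in the controls and 2.64-fold in the knockdowns, Dusp1 4.76- and 2.07-fold, Nr4a1 3.36- and 2.86-fold, and Jun 2.93- and 1.36-fold. Over the 5 T cell-labelled libraries Fos ranged 1.33-fold, which 41.9% of the same genes exceeded, and the widest were Fosb at 1.94-fold and Nr4a1 at 1.88-fold, with a median gene at 1.29-fold.

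Fos, Jun and Zfp36 placed the 6 tumour libraries in one order, from control replicate 1 through knockdown replicates 1, 2 and 3 to control replicates 6 and 2. That full order was shared by 81 of 10295 genes, or 0.787%. Dusp1 and Ier2 had the same lowest 4 libraries with the upper pair exchanged, and 1.06% of genes shared those lowest 4. Nr4a1 ran nearly the other way, though not in full. Tumour control replicate 2, the highest for Fos, was its lowest at 225 CPM, and knockdown replicate 1, next to lowest for Fos, was its highest at 1103 CPM. Control replicate 1, the lowest for Fos, lay between these at 755 CPM. How many genes ran this way was not counted. Tumour control replicate 1 was below the mean of the 6 tumour libraries for 9 of the 10 genes and control replicate 6 above it for 9. The share of all genes on those sides was not counted. Control replicate 1 was the lowest of the 6 for 17% of the 10295 genes, and for all of the 10 except Nr4a1 and Hspa1a. Within the control group alone, Fos thus spanned 301 to 1658 CPM, a span that covered all 3 knockdown libraries. Mitochondrial transcripts made up 2.30% to 3.46% of counts over the 6, with 2.47% in control replicate 1, and the time from harvest to lysis is not in the labels, so its part was not tested.

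**Figure D4:**
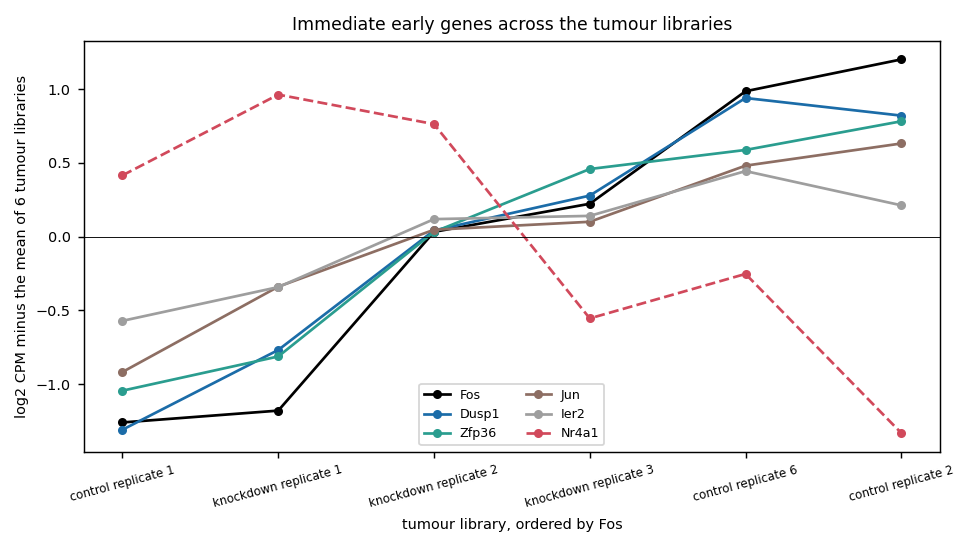
Log2 CPM of 6 genes in each tumour library minus the mean of the 6 libraries, with libraries in the order of Fos on the x axis. Fos, Dusp1, Zfp36, Jun and Ier2 are lowest in control replicate 1 and highest in control replicates 6 and 2, while Nr4a1 (dashed) is highest in knockdown replicate 1 and lowest in control replicate 2.

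The likeness of other genes to Fos was measured as the root mean square difference of centred log2 CPM over the 11 libraries, among 10294 genes. Dusp1 was the nearest at 0.21, Zfp36 was the fourth at 0.38, and the nearest 5 genes outside the set were Plekhm3 at 0.32, Arrdc3 at 0.38, Clec2d at 0.47, Alpk1 at 0.48 and Cd300lb at 0.49. Arrdc3 encodes an arrestin domain protein, Clec2d a C-type lectin and Cd300lb a myeloid surface receptor. The other genes of the set ranked far below, with Junb at 281, Jun at 452, Fosb at 989, Hspa1a at 1071, Ier2 at 1459, Egr1 at 3486 and Nr4a1 at 9676. The points share libraries, and most of the measure is the step between the kinds of sample.

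Lists of related genes gave the wider setting. Between the kinds of sample, their counts stand beside 20.3% of all genes called higher and 13.1% lower in controls. In knockdowns those shares were 21.6% and 13.6%. Of 16 other AP-1 and immediate early transcription factors, 2 were higher (Atf3 and Klf6) and 3 lower (Klf4, Myc and Fosl1) in the T cell-labelled than in the tumour controls, with a median log2 difference of 0.22 against -0.01 over all genes. Atf3, a stress-induced factor, was at 1082 ± 36.2 CPM against 467 ± 96.9 CPM, a difference of 1.21 ± 0.16. In the knockdown libraries 2 of the 16 were higher, the same Atf3 (1.27 ± 0.18) and Klf6, and Myc and Klf10 were lower. Of 16 other immediate early genes that are not transcription factors, 7 were higher and 0 lower in controls, and 7 higher and 1 lower in knockdowns. Among these Rgs1, a regulator of G protein signalling, had 358 ± 64.3 CPM against 0.79 ± 0.58 CPM in controls, and Cd69, the activation marker of lymphocytes, 101 ± 19.2 CPM against 0.060 ± 0.066 CPM. Btg1 (0.76 ± 0.13) and Ppp1r15a (1.08 ± 0.18), a stress-induced phosphatase subunit, were also higher.

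Feedback genes were divided. Of 12 MAP kinase phosphatases and Sprouty genes, 2 were higher and 3 lower in controls: Dusp2, a lymphoid phosphatase gene, was higher by 3.01 ± 0.39 at 200.3 ± 83.5 CPM against 24.6 ± 12.0 CPM, and Spry1 by 3.41 ± 0.72, while Spry4 (-0.77 ± 0.13), Spred2 (-0.46 ± 0.11) and Spred1 were lower. Of 8 genes of mRNA decay and of NF-kappaB or cytokine feedback, 6 were higher and 0 lower in controls, with a median of 1.13. Tnfaip3, the A20 gene that restrains NF-kappaB, was at 1463 ± 147 CPM against 221 ± 84.4 CPM, a difference of 2.71 ± 0.26, and Nfkbid was higher by 3.48 ± 0.28. In the knockdowns 5 of these 8 were higher.

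Other heat shock genes stood lower in the T cell-labelled libraries where they passed, with 1 exception. Of 12 heat shock proteins and cochaperones, 0 were higher and 4 lower in the T cell-labelled controls: Hspd1 (-0.66 ± 0.11), Hsp90ab1 (-0.62 ± 0.10), Dnajb1 (-0.43 ± 0.12) and Hsp90aa1 (-0.43 ± 0.13), with a list median of -0.41. In the knockdowns 5 were lower and 1, Hspb1, was higher. Of 16 upstream kinases and factors, 2 were higher in controls, Mrtfa (0.75 ± 0.18) and Crem (0.63 ± 0.18), and 1 was lower. In knockdowns 3 were higher and 1 lower, and the list medians were -0.02 in controls and 0.01 in knockdowns.

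For knockdown against control edgeR called 0 of the 80 genes tested from these lists in T cell-labelled libraries and 0 of 78 in tumours. Over all genes 0.079% and 0.0334% were called. An unadjusted edgeR p under 0.05 was met by 14 and 9 of the listed genes, and by 11.2% and 6.22% of all genes. Of the 16 transcription factors, 15 had a positive log2 difference in the T cell-labelled libraries (median 0.28) and 15 in the tumours (median 0.33), where 48.2% and 48.8% of all genes tested were positive. Among the 10 genes of the set 6 were positive and 4 negative in the T cell-labelled libraries, and 3 and 7 in the tumours. For the immediate early genes that are not transcription factors these counts were 8 and 8, then 8 and 7. Klf4, a Krüppel-like factor, had 971 ± 64.4 CPM in T cell-labelled controls and 1476 ± 99.7 CPM in T cell-labelled knockdowns (0.59 ± 0.10, edgeR adjusted p 0.13), and 1358 ± 84.9 CPM and 1709 ± 230 CPM in tumours (0.34 ± 0.14, edgeR adjusted p 0.783). In tumours Nfkbia, the inhibitor of NF-kappaB, differed by 0.63 ± 0.16 (edgeR adjusted p 0.504) and Tnfaip3 by 1.05 ± 0.29 (edgeR adjusted p 0.57), in the list with the largest median, 0.43.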

How the data were processed

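For 11 libraries the authors deposited gene counts (whole numbers) and FPKM values. The submitters' processing notes name mm10 as the build. Aligner, counting program and use of strand: not given in the sources used here. The deposited FPKM equal counts divided by a fixed gene length and the library total, and they were not tested.

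Counts were analysed in R 4.3.3 with edgeR 4.0.16: filterByExpr, TMM scaling and the quasi-likelihood F-test, with Benjamini-Hochberg adjustment over all genes tested and a threshold of 0.05. Knockdown was compared with control within each kind of sample in a fit of those libraries. The comparisons between kinds of sample and the interaction came from a fit of all 4 groups. The SE was taken as the log2 fold change over the root of F. The test scripts were first tested on simulated data. A count of 0 allows 3 counts, 0.157 to 0.201 CPM, which covers counting error only. No pair of replicates agreed within sampling noise.

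Members and lists were chosen with earlier results of these data known. The text names all 10 members, up to 4 genes per related list and comparison (those past the threshold first, then by p) and the 5 other genes nearest to Fos. Fosl1, Spred1 and others beyond that number are named to complete a count and were picked with their values in view. Some genes of the related lists are not reported here. Other settings tried were the DESeq2 1.42.0 Wald test, no filter on low counts, other scaling, other fits and leaving out each library.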

Additional observations from a re-analysis of the deposited data

How the results depend on the processing

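The calls of Fosb, Junb, Dusp1, Zfp36 and Hspa1a between T cell-labelled and tumour controls kept their direction and side of the threshold under every alternative run except the summed Hspa1 counts, and the number of the 10 genes called was 5 without each library in turn. In the knockdowns it ran from 4 to 6, with Fos and Dusp1 lost as given above, and the genes called over all from 3739 to 6191 (6104 with all libraries).

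Counts of calls for knockdown against control depended on the method. In T cell-labelled libraries 13 genes became 1 with no filter, 246 with DESeq2 (1 of the 10, Fosb), 1 in a fit of 4 groups and 0 to 34 without each library. In tumours 5 became 115 with DESeq2, 26 in a fit of 4 groups and 0 to 8 without each library. The title numbers 1 and 2 are shared by tumour groups. Deviations of those same-numbered libraries from their group means correlated at 0.103 and -0.226 across genes, where the other pairs ran from -0.278 to 0.190. Deviations within a group are tied to each other, so these values cannot show whether the numbers mark pairs. With a replicate block 131 genes were called, 1 of them among the 10 (Nr4a1, 1.34, edgeR adjusted p 0.0125). With that block Jun was at 0.017 and Ier2 at 0.088. Control replicate 6 and knockdown replicate 3 have no same-numbered partner, so that fit draws its contrast only from the libraries numbered 1 and 2. The interaction count of 1 became 4 with no filter (Ier2 at 0.011), 33 with DESeq2 and 0 to 4 without each library. The cause was not tested.

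Log2 differences that changed sign without 1 library were uncalled. In T cell-labelled libraries, knockdown against control, it ran from -0.011 to 0.25 for Zfp36, -0.20 to 0.0027 for Ier2, -0.030 to 0.17 for Egr1, -0.0099 to 0.14 for Jun. In tumours, knockdown against control, it ran from -0.59 to 0.0018 for Jun, -0.23 to 0.052 for Junb, -0.33 to 0.15 for Ier2. In controls, T cell-labelled against tumour, it ran from -0.13 to 0.37 for Egr1, -0.17 to 0.28 for Ier2, -0.43 to 0.40 for Nr4a1, -0.27 to 0.30 for Jun. In knockdowns, T cell-labelled against tumour, it ran from -0.092 to 0.13 for Ier2, -0.28 to 0.035 for Egr1. In the difference of knockdown effects, it ran from -0.24 to 0.24 for Ier2, -0.49 to 0.026 for Egr1, -0.81 to 0.0014 for Nr4a1, -0.15 to 0.76 for Hspa1a, -0.080 to 0.70 for Dusp1. Where an arm kept 1 library, it was assumed to vary like the other groups. Ranks by level per length were the same by FPKM and on a TPM scale, and moved in 26 of 40 cases with merged exon lengths. Groups of 2 and 3 libraries, and the wide tumour replicates, limit what differences could be called.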

Other observations

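Tumour control replicate 1, lowest of the tumour libraries for Fos, Jun, Dusp1 and Zfp36, also had Col1a1, a fibrillar collagen gene, at 1273 CPM and Col1a2 at 1025 CPM, where the other 5 tumour libraries had 233 to 426 CPM and 34.6 to 167 CPM. Col3a1 was at 3553 CPM there and at 2671 to 3986 CPM in the other 5. The other listed mesenchymal markers, Fn1 at 6835 CPM, Vim at 3258 CPM and Sparc at 1836 CPM, also lay within the range of the other 5. Col1a1 and Col1a2 were picked with their values in view, and a link to the levels of Fos was not tested.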
